A study of Mus musculus with 12 samples.

Results

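The genes described here encode nuclear subunits of the mitochondrial respiratory chain and of ATP synthase. They were chosen by symbol, as genes beginning with Nduf and a subunit letter, Sdha to Sdhd, Uqcr, Cox4 to Cox8 or Atp5, and each was read from its brightest probe set with a single symbol. The rule found 79 of 17097 named genes, with 34 in complex I, 4 in complex II, 7 in complex III, 17 in complex IV and 17 in complex V. The rule itself uses no difference between populations, but it was chosen with earlier results of these data known. Of the 79, 8 are tissue or alternative isoforms (Cox4i2, Cox6a2, Cox6b2, Cox7a1, Cox7b2, Cox8b, Cox8c and Ndufa4l2). Genes carried on mitochondrial DNA are not analysed here.

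The respiratory chain lies in the inner mitochondrial membrane. Complex I takes electrons from NADH and complex II takes them from succinate, and both pass them through ubiquinone to complex III, which hands them by way of cytochrome c to complex IV and oxygen. Complexes I, III and IV pump protons, and complex V, the ATP synthase, uses the return of protons to make ATP. The complexes are built from many nuclear genes whose products are needed in fixed proportions, and transcripts of the chain are known to be high in brown fat, heart and muscle and to increase when fat cells mature.

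The arrays measured dermal fibroblasts of 3 newborn female littermate mice aged 2 days, sorted by flow cytometry into 4 populations, with 1 array per population and animal. All the cells were gated on Pdgfra and CD34 and against CD45, CD117, CD31 and EpCam, and no animal carried a treatment or an engineered allele according to the labels. CD26+ papillary cells lacked Dlk1 and Sca1, the Dlk1- Sca1+ and Dlk1+ Sca1+ cells, both called pre-adipogenic in the labels, lacked CD26, and Dlk1+ reticular cells lacked CD26 and Sca1. RNA of 4500 cells per sample was amplified over 21 cycles before hybridisation. In all 12 arrays 7 general fibroblast markers averaged 10.887 to 11.3 on the log2 scale. Dpp4, the gene of CD26, averaged 10.61 ± 0.40 in papillary cells and 6.37 ± 0.20, 6.26 ± 0.06 and 6.30 ± 0.22 in Dlk1- Sca1+, Dlk1+ Sca1+ and reticular cells (SD, n = 3 each). Levels below are log2 RMA values, compared only between arrays for the same gene. Each difference subtracts 1 population mean from another on that scale and carries an SE from limma. A gene was called at a Benjamini-Hochberg adjusted p under 0.05 over all 17097 genes. Each population is a bulk sample, so a lower level in every cell and a smaller share of cells with the transcript cannot be told apart.

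Transcripts of the respiratory chain were lowest in reticular cells and, for most genes, highest in Dlk1- Sca1+ cells. The median over the 79 genes was 10.20, 10.28 and 10.22 in the papillary arrays of animals 1, 2 and 3. It was 10.46, 10.30 and 10.53 in the Dlk1- Sca1+ arrays and 10.18, 10.11 and 10.22 in the Dlk1+ Sca1+ arrays. In the reticular arrays it was 9.90, 9.78 and 9.95. The 3 reticular medians lay below the 9 others, while papillary and Dlk1+ Sca1+ medians overlapped. The reticular mean was the lowest of the 4 for 69 genes (87.3%), against 22.2% of all genes. The Dlk1- Sca1+ mean was the highest for 51 (64.6%), against 24.3% of all genes, and the papillary mean was the highest for 22 (27.8%), against 32.4%. The order reticular, Dlk1+ Sca1+, Dlk1- Sca1+ by increasing mean held for 71 genes (89.9%), against 22.5% of all genes and 30.3% of the 2850 genes with a mean of 9 or more. These ranks were not particular to the chain. Among 71 mitochondrial and 66 cytosolic ribosomal protein genes the Dlk1- Sca1+ mean was the highest for 57.7% and 69.7%. The reticular mean was the lowest for 74.6% and 39.4% of them, and the order held for 77.5% and 51.5%.

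**Figure D1:**
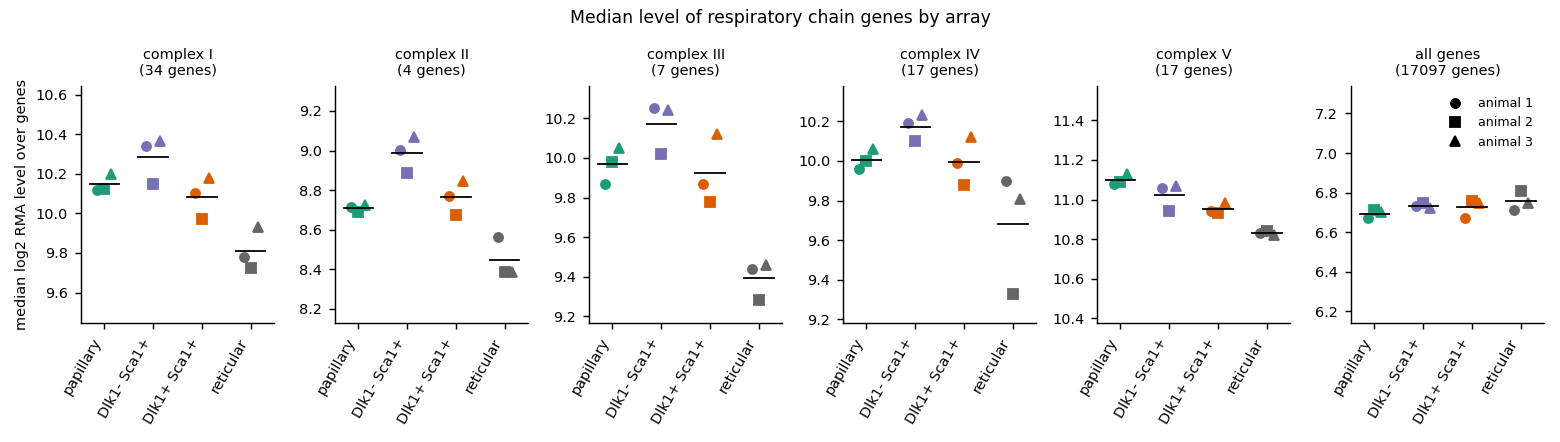
Median log2 RMA level over the genes of each complex and over all genes (y axis) in the papillary, Dlk1- Sca1+, Dlk1+ Sca1+ and reticular arrays (x axis). Symbols mark animals 1 to 3, lines are means of the 3 medians, and every y axis spans the same range. In each complex the mean of the reticular medians is the lowest, while all genes lie between 6.67 and 6.81.

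A moderated F-test over the 4 populations called 59 of the 79 genes (74.7%), against 35.7% of all genes. Bright genes are called more often, and of the 2850 genes with a mean of 9 or more 62.0% passed. Of the 79 members 65 had such a mean, and 55 of these (84.6%) passed. By complex it called 27 of 34 genes in complex I, 3 of 4 in complex II, 7 of 7 in complex III, 8 of 17 in complex IV and 14 of 17 in complex V. The share in complex IV, 47.1%, lay between those of all genes and of genes with a mean of 9 or more. Complex IV includes dim isoforms, such as Cox7b2 with a mean of 4.39 and Cox4i2 with a mean of 7.08. The comparison with genes at 9 or more is therefore not at a like level. Of the 8 isoforms it called 2, and of the other 71 genes 57. Without animal 1, 2 or 3 the count was 38, 38 or 37. In limma fits on 2 animals fewer genes also passed over the whole array. Some genes that did not pass the F-test still had a call in a single comparison described below. Among these are Cox4i1, Cox7a1, Cox7a2l, Cox8a and Cox8b.

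Dlk1- Sca1+ against reticular cells held the most calls: 61 of 79 genes were higher in Dlk1- Sca1+ cells, against 9.36% of all genes and 20.1% of genes with a mean of 9 or more. None was lower by limma's adjusted or unadjusted p, with 0 genes under an unadjusted 0.05, against 8.80% of all genes called lower. The median difference over the 79 genes was 0.41, and over all genes it was -0.007. Within animals 1, 2 and 3 the median was 0.41, 0.35 and 0.44, and 69 genes were higher in Dlk1- Sca1+ cells in every animal. The count fell to 39, 40 and 34 without animal 1, 2 and 3.

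In papillary against reticular cells 44 genes were higher, against 13.9% of all genes, and 3 were lower, against 13.6%. Among genes with a mean of 9 or more 24.4% were higher and 23.3% lower. The median difference was 0.29 over the members and -0.007 over all genes. Without animal 2 the count of higher genes was 25, and without animal 3 it was 29. The 3 lower genes, Cox4i2, Cox7a2l and Cox8b, are all in complex IV. Of these calls 1 was left without the papillary array of animal 1 or 3 or the reticular array of animal 1 or 2, and 0 without the papillary array of animal 2.

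Dlk1+ Sca1+ cells lay between. Against reticular cells 18 genes were higher in Dlk1+ Sca1+ cells, against 4.06% of all genes and 8.49% of those with a mean of 9 or more, and 39 were higher when the animal was a block in the fit. None was lower, against 4.37% of all genes, with 1 gene lower at an unadjusted p under 0.05 in limma. The median difference was 0.23, and 47 genes were higher at an unadjusted p under 0.05 in limma. Within animals 1, 2 and 3 the median was 0.21, 0.20 and 0.25. In every animal 63 genes were higher in Dlk1+ Sca1+ cells and 3 were lower. With arrays centred on their medians 24 members were higher, and the calls over all genes were then 885 higher and 622 lower, against 694 and 747 without centring. The count of 18 fell when single arrays were left out, in fits that have fewer arrays. It was 11 or 8 without the reticular array of animal 1 or 2, and 8 or 4 without the Dlk1+ Sca1+ array of animal 1 or 3. Without the whole of animal 1 it was 8, and without animal 2 or 3 it was 1.

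In Dlk1- Sca1+ against Dlk1+ Sca1+ cells 10 genes were higher, against 3.23% of all genes and 5.82% of those with a mean of 9 or more, and 22 with the animal as a block. None was lower, against 4.13% of all genes, and 0 were lower at an unadjusted p under 0.05 in limma. The median difference was 0.18, and 65 of 79 genes were higher in Dlk1- Sca1+ cells within each animal. The 10 genes were Atp5b, Cox6b2, Ndufa10, Ndufa8, Ndufb10, Ndufb8, Ndufb9, Ndufv1, Uqcrc1 and Uqcrq. The count was 6 or 3 without the Dlk1+ Sca1+ array of animal 1 or 2, and 4 or 5 without the Dlk1- Sca1+ array of animal 1 or 3. It was 1 without animal 1 and 0 without animal 2 or 3.

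Papillary cells differed from both Sca1+ populations in a mixed way. Against Dlk1+ Sca1+ cells 13 members stood higher in papillary cells, against 14.1% of all genes, and 3 were lower, against 13.9%. With the animal as a block 20 were higher. Without animal 1 or 2 the higher genes numbered 7 or 4, and without animal 1 there was 1 lower gene. Against Dlk1- Sca1+ cells 2 genes were higher in papillary cells, against 13.1% of all genes, and 15 were lower, against 13.3%. The 13 genes are 16.5% of the members, near the share of all genes and below the 21.4% of genes with a mean of 9 or more. The 15 are 19.0%, above the share of all genes and below the 24.7% of genes with that mean. Without animal 1, 2 or 3 the 15 became 6, 7 or 8. The higher genes became 1 without the papillary array of animal 1 or 3, without the Dlk1- Sca1+ array of animal 2, or without any whole animal, and 5 with the animal as a block.

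**Figure D2:**
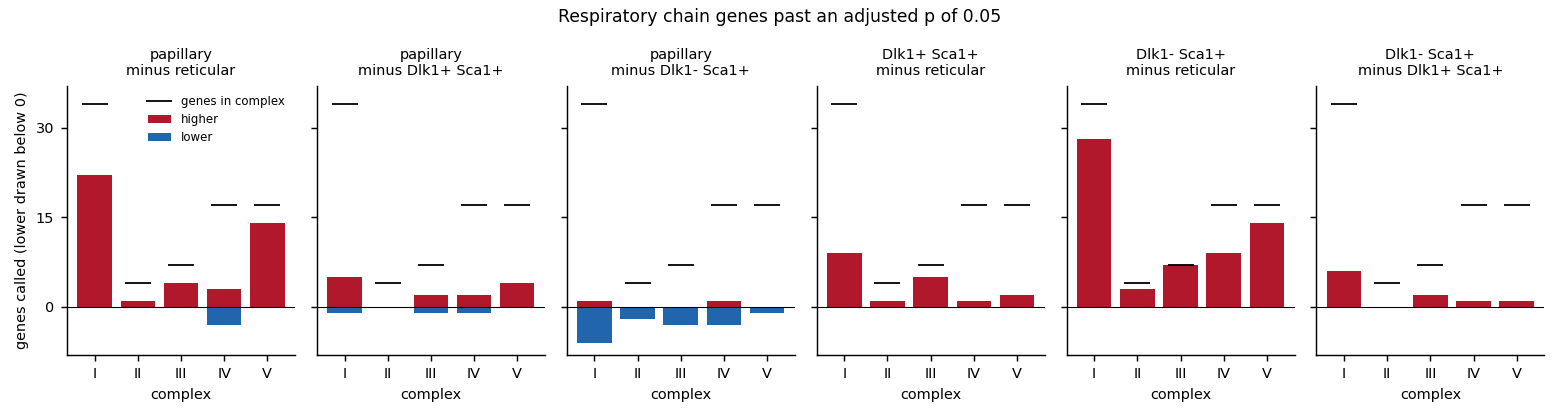
Number of respiratory chain genes called higher (red) or lower (blue, drawn below 0) in the first-named population, by complex (x axis) for each of the 6 comparisons. Black marks give the genes in each complex. Complex III shows 7 of 7 genes higher in Dlk1- Sca1+ than in reticular cells, and complex IV holds all 3 genes lower in papillary than in reticular cells.

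The 6 comparisons share arrays, so their counts are not independent of each other. Of the 79 genes 41 were higher than in reticular cells in both papillary and Dlk1- Sca1+ cells, 20 in Dlk1- Sca1+ cells alone and 3, Atp5h, Ndufa3 and Ndufb11, in papillary cells alone. A call in 1 comparison and none in another was not tested as a difference. With the animal as a block the sets were 50 in both, 14 in Dlk1- Sca1+ cells alone and 5, Atp5h, Atp5j, Cox7a2, Ndufa4l2 and Ndufb11, in papillary cells alone. No comparison called 11 genes, among them the isoforms Cox6a2, Cox7b2, Cox8c and Ndufa4l2. With the block 6 were called nowhere, and Atp5j, Cox7a2, Ndufa4l2, Ndufa5 and Sdhd had a call. The shares of all genes with the same patterns were not counted, so these sets are not read as a result about the members.

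Of the 79 genes 38 had a second probe set, which did not always give the same call. Of the genes called in Dlk1- Sca1+ against reticular cells 31 had one, and the next brightest was called the same way for 22 and not called for 9. In Dlk1+ Sca1+ against reticular cells the next brightest was called the same way for 2 of 8 and not called for 6. For papillary against reticular cells it was called the same way for 21 of 26. A dimmer probe set of Ndufa12, with a mean of 5.015, was called the opposite way there. It gave -0.47 (limma adjusted p = 0.00846) where the brightest gave 0.37. Between Dlk1- Sca1+ and Dlk1+ Sca1+ cells the next brightest was called for none of the 4 genes with one, Ndufa10, Ndufb8, Ndufv1 and Uqcrq. Several of these second probe sets were dim, such as that of Ndufa10 with a mean of 6.34. Adjusted p-values of single probe sets are from limma over all 45037 probe sets that are not controls.

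**Figure D3:**
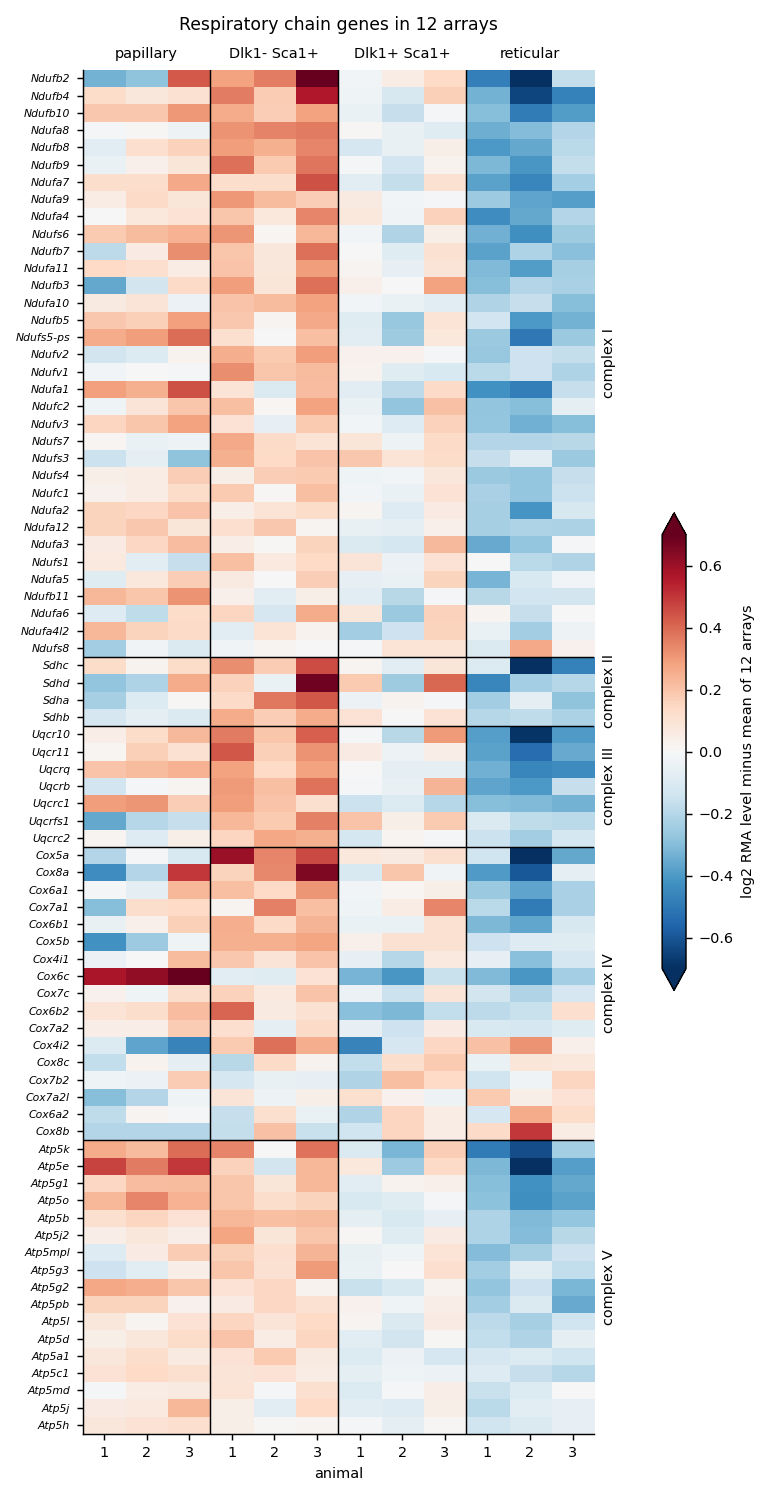
Level of each of the 79 genes (rows, by complex) in the 12 arrays (columns, 3 animals per population), as the log2 RMA level minus the gene's mean over the arrays. Red is above and blue below the mean. Reticular columns are blue for most genes, Cox6c is red in the papillary columns, and several muscle and testis isoforms of complex IV run differently from the rest.

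Complex I was higher in Dlk1- Sca1+ than in reticular cells for 28 of 34 genes, and in papillary than in reticular cells for 22. Ndufb2, an accessory subunit of the membrane arm, had the widest difference. It stood at 9.59, 9.67 and 10.07 in Dlk1- Sca1+ cells and at 8.83, 8.56 and 9.14 in reticular cells. The groups did not overlap, and the difference was 0.93 ± 0.20, or 1.91-fold (limma adjusted p = 0.00506). Its papillary values of 8.98, 9.03 and 9.74 spanned both groups. Ndufb4, another accessory subunit of that arm, read 9.60 ± 0.03 in papillary, 9.86 ± 0.19 in Dlk1- Sca1+, 9.50 ± 0.14 in Dlk1+ Sca1+ and 9.01 ± 0.16 in reticular cells (SD, n = 3 each). All 3 differences from reticular cells passed, with 0.85 ± 0.11 for Dlk1- Sca1+ cells (limma adjusted p = 0.000136).

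Ndufa8, an accessory subunit that faces the space between the membranes, had the smallest F-test p of complex I (limma adjusted p = 4.82e-05). Its levels were 10.29, 10.31 and 10.27 in papillary cells, and 10.62, 10.65 and 10.67 in Dlk1- Sca1+ cells. They were 10.31, 10.25 and 10.22 in Dlk1+ Sca1+ cells, and 9.96, 10.00 and 10.10 in reticular cells. Dlk1- Sca1+ cells stood above every other array and reticular cells below, while papillary and Dlk1+ Sca1+ values overlapped. Dlk1- Sca1+ cells exceeded reticular cells by 0.63 ± 0.07 (1.54-fold, limma adjusted p = 2.24e-05) and Dlk1+ Sca1+ cells by 0.39 ± 0.07 (limma adjusted p = 0.00253). The difference papillary minus Dlk1- Sca1+ was -0.36 ± 0.07 (limma adjusted p = 0.00107).

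The core subunits of complex I carry its flavin and iron-sulfur centres and are conserved in bacteria. Of 6 measured core genes (Ndufs1, Ndufs3, Ndufs7, Ndufs8, Ndufv1 and Ndufv2), 5 were higher in Dlk1- Sca1+ than in reticular cells, and the sixth, Ndufs8, depended on the probe set. Its brightest, with a mean of 7.96, gave -0.07, while the 3 others, with means of 7.73 to 7.89, gave 0.61, 0.77 and 0.42 and were called (limma adjusted p = 0.00347, 0.000406 and 0.00226). In papillary against reticular cells none of the 6 was called by limma's adjusted p, 2 were higher at an unadjusted p under 0.05, and 2 were called with the animal as a block. The smallest adjusted p among them was 0.0726 for Ndufv1. By another probe set 3 of the 6 were called there, Ndufv2 at 0.32, Ndufs7 at 0.25 and Ndufs8 at 0.33 (limma adjusted p = 0.00914, 0.0203 and 0.0435). By the brightest probe set 22 of the other 28 complex I genes had papillary levels called above the reticular ones, and the median differences were 0.10 for the core and 0.39 for the rest. The contrast between the core and the other genes thus changes with the probe set, and it was not tested. In papillary against Dlk1- Sca1+ cells 3 of the 6 core genes were lower (5 with the animal as a block), and so were 3 of the other 28 (7 with the block). Of all genes 13.3% were lower there. The second probe sets of Ndufv1 and Ndufv2 gave -0.13 and -0.14 and were not called (limma adjusted p = 0.276 and 0.237). By any probe set 4 of the 6 and 4 of the other 28 were lower, and 2 of the 28 were higher. This contrast was not tested either.

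Ndufs3, a core subunit of the matrix arm, read 8.96, 9.05 and 8.83 in papillary cells and 9.36, 9.25 and 9.31 in Dlk1- Sca1+ cells. It read 9.30, 9.21 and 9.24 in Dlk1+ Sca1+ cells and 8.95, 9.04 and 8.85 in reticular cells. Both Sca1+ populations lay above the papillary and reticular ones without overlap. The difference papillary minus Dlk1- Sca1+ was -0.36 ± 0.08 (limma adjusted p = 0.0038), papillary minus Dlk1+ Sca1+ was -0.30 ± 0.08 (limma adjusted p = 0.0105), and papillary minus reticular was 0.00 ± 0.08. Ndufv1, which binds NADH and the flavin, averaged 11.08 ± 0.01 in papillary, 11.33 ± 0.07 in Dlk1- Sca1+, 11.03 ± 0.07 in Dlk1+ Sca1+ and 10.90 ± 0.04 in reticular cells (SD, n = 3 each). Its Dlk1- Sca1+ level exceeded that of each other population at limma adjusted p of 0.0129, 0.0142 and 0.000597. By its second probe set, with a mean of 9.18, the call against reticular cells was kept (limma adjusted p = 0.0198), and those against papillary and Dlk1+ Sca1+ cells were not (limma adjusted p = 0.276 and 0.0879).

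Among accessory subunits, Ndufa1 was at 11.62, 11.58 and 11.78 in papillary cells, against 10.91, 10.85 and 11.17 in reticular cells, a difference of 0.68 ± 0.12 (1.61-fold, limma adjusted p = 0.000543). Ndufs5-ps, a symbol that names a pseudogene of Ndufs5, differed by 0.65 ± 0.10 between papillary and reticular cells (limma adjusted p = 0.000239), but its probes cannot be told apart here from the parent gene. Ndufb11, an accessory subunit of the membrane arm, was one of the 2 members whose papillary level exceeded the Dlk1- Sca1+ level. It read 11.67, 11.63 and 11.75 in papillary cells and 11.47, 11.36 and 11.48 in Dlk1- Sca1+ cells. The papillary values lay above the others without overlap, by 0.25 ± 0.07 (limma adjusted p = 0.0241).

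Ndufa4 was counted with complex I by its symbol and is now regarded as a subunit of complex IV. It averaged 10.68 ± 0.05 in papillary, 10.82 ± 0.14 in Dlk1- Sca1+, 10.69 ± 0.10 in Dlk1+ Sca1+ and 10.28 ± 0.12 in reticular cells (SD, n = 3 each). All 3 differences from reticular cells were called, at 0.39, 0.54 and 0.40 with an SE of 0.09 each. Its paralog Ndufa4l2, known as a target of hypoxia signalling, ranged from 7.50 to 7.98 over the 12 arrays and was not called in any comparison. With the animal as a block its papillary minus reticular difference of 0.28 was called (limma adjusted p = 0.0459, against 0.0593 without the block).

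Complex II oxidises succinate and has 4 subunits. Sdha, the flavoprotein, was at 10.24, 10.38 and 10.48 in papillary cells and 10.61, 10.84 and 10.91 in Dlk1- Sca1+ cells. In Dlk1+ Sca1+ cells it was at 10.43, 10.50 and 10.46, and in reticular cells at 10.23, 10.41 and 10.19. The Dlk1- Sca1+ values lay above all others. The difference papillary minus Dlk1- Sca1+ was -0.42 ± 0.10 (limma adjusted p = 0.00498), and Dlk1- Sca1+ minus reticular was 0.51 ± 0.10 (limma adjusted p = 0.0022). These calls rest on the brightest probe set. The next, with a mean of 10.00, gave -0.15 and 0.21, and neither was called (limma adjusted p = 0.191 and 0.0994).

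Sdhb, the iron-sulfur subunit, read 9.84, 9.89 and 9.86 in papillary cells and 10.22, 10.13 and 10.22 in Dlk1- Sca1+ cells. It read 10.06, 9.96 and 10.06 in Dlk1+ Sca1+ cells and 9.76, 9.78 and 9.74 in reticular cells. The 4 populations did not overlap. Dlk1- Sca1+ cells exceeded reticular cells by 0.43 ± 0.06 (limma adjusted p = 0.000414), and papillary minus Dlk1- Sca1+ was -0.33 ± 0.06 (limma adjusted p = 0.00182). Sdhc, a membrane anchor, was the complex II gene higher in papillary than in reticular cells, at 7.56 ± 0.06 against 7.04 ± 0.31 (SD, n = 3 each; limma adjusted p = 0.00854). Sdhd, the other anchor, ranged from 6.77 to 7.91 over the arrays and was called in no comparison. It differed by 0.56 ± 0.20 between Dlk1- Sca1+ and reticular cells (limma adjusted p = 0.0791; 4 of 4 complex II genes were higher there with the animal as a block).

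In complex III, which passes electrons on to cytochrome c, all 7 genes were higher in Dlk1- Sca1+ than in reticular cells, with differences from 0.39 to 0.81. Papillary levels of the small subunits Uqcr10, Uqcr11 and Uqcrq and of the core protein Uqcrc1 were also called above the reticular ones, as were those of Uqcrb with the animal as a block (limma adjusted p = 0.00851, against 0.0553 without it). Uqcrq stood at 11.27, 11.29 and 11.31 in papillary cells and 11.35, 11.21 and 11.35 in Dlk1- Sca1+ cells. It stood at 11.07, 11.00 and 11.00 in Dlk1+ Sca1+ cells and 10.73, 10.61 and 10.63 in reticular cells. Reticular values were the lowest, Dlk1+ Sca1+ values came next, and the papillary and Dlk1- Sca1+ values overlapped above them. Papillary minus reticular was 0.63 ± 0.07 and Dlk1- Sca1+ minus reticular 0.65 ± 0.07 (limma adjusted p = 1.35e-05 and 2.66e-05). Among 4 probe sets of Uqcrq a dimmer one was called in the opposite direction in papillary against Dlk1+ Sca1+ cells, at -0.53 where the brightest gave 0.27.

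Uqcrb, a small subunit near the quinone site, differed by 0.61 ± 0.10 between Dlk1- Sca1+ and reticular cells and by -0.34 ± 0.10 between papillary and Dlk1- Sca1+ cells. Uqcr10 averaged 9.96 ± 0.09 in papillary, 10.15 ± 0.12 in Dlk1- Sca1+, 9.85 ± 0.25 in Dlk1+ Sca1+ and 9.34 ± 0.17 in reticular cells (SD, n = 3 each). Its difference between Dlk1- Sca1+ and reticular cells, 0.81 ± 0.12, was the widest of the complex (1.76-fold, limma adjusted p = 0.000472). Uqcrc1, a core protein without a redox group, was at 9.74, 9.76 and 9.62 in papillary and 9.74, 9.65 and 9.56 in Dlk1- Sca1+ cells. It was at 9.30, 9.35 and 9.25 in Dlk1+ Sca1+ and 9.15, 9.14 and 9.12 in reticular cells. The papillary and Dlk1- Sca1+ values overlapped above the others, and papillary minus Dlk1+ Sca1+ was 0.41 ± 0.07 (limma adjusted p = 0.00073).

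Uqcrfs1, the Rieske iron-sulfur protein of complex III, had another order of populations. It read 8.42, 8.58 and 8.62 in papillary cells and 9.01, 8.96 and 9.13 in Dlk1- Sca1+ cells. It read 8.98, 8.82 and 8.96 in Dlk1+ Sca1+ cells and 8.68, 8.60 and 8.59 in reticular cells. Papillary and reticular values overlapped, and both Sca1+ populations lay above them. Papillary minus Dlk1- Sca1+ was -0.49 ± 0.08 (limma adjusted p = 0.000424) and papillary minus Dlk1+ Sca1+ was -0.38 ± 0.08 (limma adjusted p = 0.0028).

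**Figure D4:**
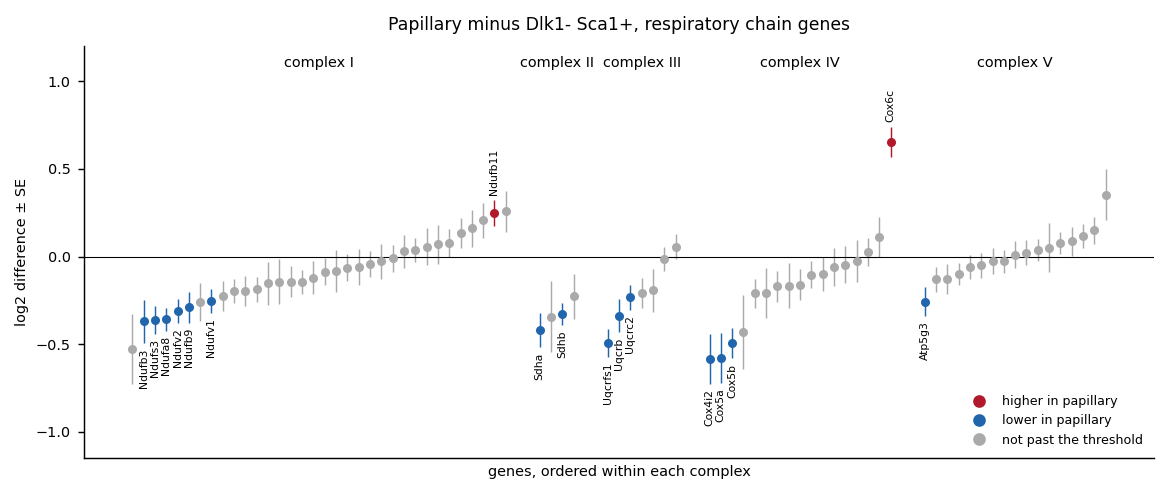
Papillary minus Dlk1- Sca1+ log2 difference (y axis) for each of the 79 genes, ordered within its complex (x axis), with limma's SE as bars and n = 3 animals per population. The 15 genes called lower in papillary cells (blue) are named, as are the 2 called higher (red), Cox6c at 0.65 and Ndufb11 at 0.25.

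In complex IV, cytochrome c oxidase, calls were mixed. In Dlk1- Sca1+ against reticular cells 9 of 17 genes were higher, against 9.36% of all genes. In papillary against reticular cells 3 were higher and 3 lower (6 and 3 with the animal as a block). Of all genes 13.9% were higher and 13.6% lower there, and of genes with a mean of 9 or more 24.4% and 23.3%. The 3 higher and 3 lower of 17 are near the shares of all genes and are not read as a result about the complex. The reticular mean was the lowest for 9 of the 17 genes (52.9%) and the papillary mean for 6.

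Cox6c, a small subunit with a single isoform, had the smallest F-test p of the 79 genes (limma adjusted p = 4.57e-06). Its level was 12.68, 12.73 and 12.81 in papillary cells and 12.03, 12.02 and 12.21 in Dlk1- Sca1+ cells. It was 11.78, 11.70 and 11.95 in Dlk1+ Sca1+ cells and 11.80, 11.70 and 11.87 in reticular cells. Papillary values lay above all others, and the Dlk1+ Sca1+ and reticular values overlapped. Papillary cells exceeded reticular cells by 0.95 ± 0.09 (1.93-fold, limma adjusted p = 3e-06), Dlk1+ Sca1+ cells by 0.93 ± 0.09 (limma adjusted p = 2.86e-06) and Dlk1- Sca1+ cells by 0.65 ± 0.09 (limma adjusted p = 7.64e-05).

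Cox5a and Cox5b, subunits without tissue isoforms in mammals, had papillary levels below those of Dlk1- Sca1+ cells. Cox5a stood at 9.96, 10.16 and 10.06 in papillary cells and 10.77, 10.51 and 10.63 in Dlk1- Sca1+ cells. It stood at 10.24, 10.23 and 10.28 in Dlk1+ Sca1+ cells and 10.03, 9.33 and 9.81 in reticular cells. Reticular and papillary values overlapped below the Sca1+ populations, and animal 2 gave the lowest reticular value. Papillary minus Dlk1- Sca1+ was -0.58 ± 0.14 (limma adjusted p = 0.00791), and Dlk1- Sca1+ minus reticular was 0.91 ± 0.14 (1.88-fold, limma adjusted p = 0.000542). Cox5b averaged 11.10 ± 0.20 in papillary, 11.59 ± 0.02 in Dlk1- Sca1+, 11.42 ± 0.04 in Dlk1+ Sca1+ and 11.23 ± 0.03 in reticular cells (SD, n = 3 each). Papillary minus Dlk1- Sca1+ was -0.49 ± 0.09 and papillary minus Dlk1+ Sca1+ was -0.32 ± 0.09, and both were called. Its second probe set, with a mean of 10.88, gave -0.16 in the last comparison and was not called (limma adjusted p = 0.498).

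Several subunits of complex IV come as pairs of isoforms. Cox4i1, the form found in most tissues, averaged 11.23 ± 0.14 in papillary, 11.33 ± 0.06 in Dlk1- Sca1+, 11.11 ± 0.14 in Dlk1+ Sca1+ and 11.01 ± 0.12 in reticular cells (SD, n = 3 each), and Dlk1- Sca1+ minus reticular was 0.32 ± 0.10 (limma adjusted p = 0.0381). Cox4i2, the form known from lung and low oxygen, was at 6.98, 6.71 and 6.61 in papillary cells and 7.26, 7.46 and 7.33 in Dlk1- Sca1+ cells. It was at 6.61, 6.96 and 7.22 in Dlk1+ Sca1+ cells and 7.28, 7.39 and 7.11 in reticular cells. Papillary values lay below those of Dlk1- Sca1+ and reticular cells and within the range of Dlk1+ Sca1+ cells. Papillary minus reticular was -0.49 ± 0.14 (limma adjusted p = 0.0202) and papillary minus Dlk1- Sca1+ was -0.58 ± 0.14 (limma adjusted p = 0.00796).

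The forms common outside muscle, Cox6a1 and Cox6b1, exceeded their reticular levels in papillary cells by 0.34 ± 0.09 and 0.31 ± 0.09 and in Dlk1- Sca1+ cells by 0.51 ± 0.09 and 0.47 ± 0.09. Cox6a2, the heart and muscle form, ranged from 7.37 to 7.84 and was called nowhere. Cox6b2, known from testis, averaged 7.51 ± 0.06 in papillary, 7.56 ± 0.19 in Dlk1- Sca1+, 7.10 ± 0.08 in Dlk1+ Sca1+ and 7.29 ± 0.17 in reticular cells (SD, n = 3 each). It was higher in papillary and in Dlk1- Sca1+ than in Dlk1+ Sca1+ cells (limma adjusted p = 0.0101 and 0.0182).

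Cox7a1, the heart and muscle form, averaged 7.04 ± 0.17 in Dlk1- Sca1+ and 6.55 ± 0.16 in reticular cells (SD, n = 3 each), a difference of 0.50 ± 0.14 (limma adjusted p = 0.0263). Its common counterpart Cox7a2 ranged from 11.92 to 12.24 over the 12 arrays and was not called. With the animal as a block its papillary minus reticular difference of 0.19 was called (limma adjusted p = 0.0336, against 0.104 without the block). Cox8b, a muscle form, was at 7.07 in each papillary array and at 7.41, 7.77 and 7.33 in reticular cells, a difference of -0.43 ± 0.13 (limma adjusted p = 0.0219). Cox8a, the common form, was higher in Dlk1- Sca1+ than in reticular cells by 0.73 ± 0.21 (limma adjusted p = 0.0303), and its second probe set gave 0.81 without a call (limma adjusted p = 0.107). Cox8c and Cox7b2, known from testis, ranged from 7.15 to 7.53 and from 4.18 to 4.60 and were not called.

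Cox7a2l is related to Cox7a2 and is known to join complexes III and IV into supercomplexes. It read 10.78, 10.87 and 11.05 in papillary cells and 11.26, 11.12 and 11.18 in reticular cells. The papillary values lay below the reticular ones, with a difference of -0.29 ± 0.08 (limma adjusted p = 0.0207). It was the single member outside the tissue isoforms that was lower in papillary than in reticular cells, and it did not pass the F-test. Dlk1- Sca1+ minus reticular was -0.08 ± 0.08 (limma adjusted p = 0.656).

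**Figure D5:**
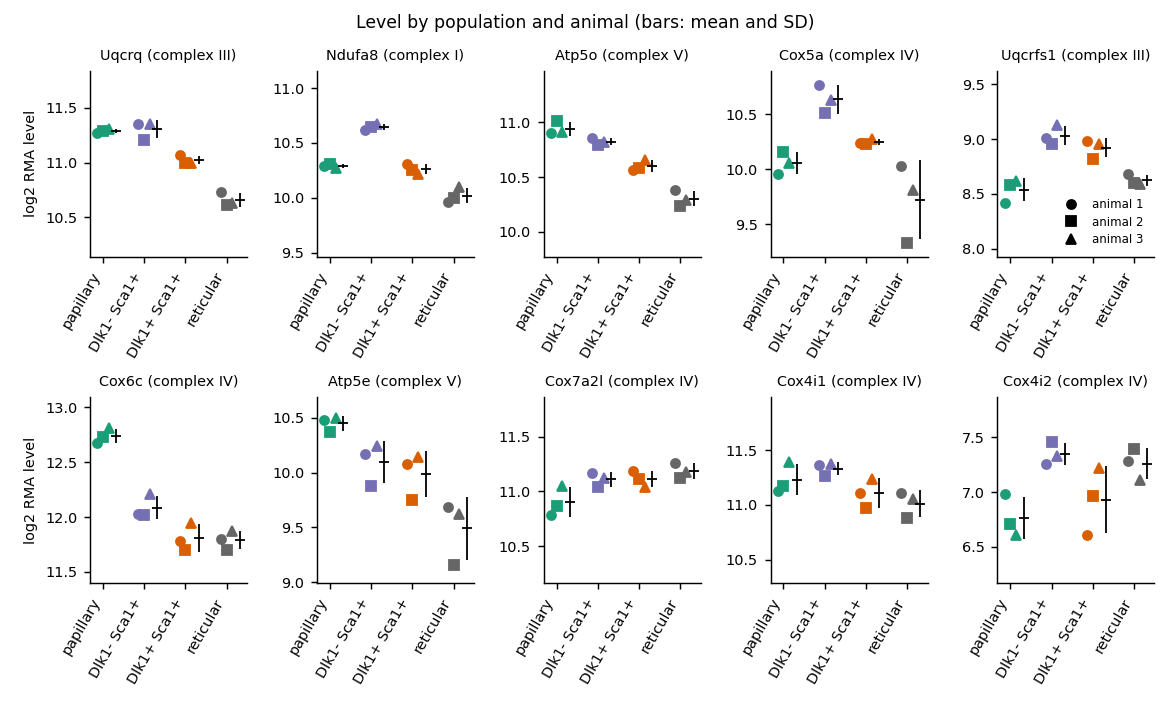
Log2 RMA level (y axis) of 10 respiratory chain genes in each array, by population (x axis), with a symbol for each of the 3 animals and bars for mean and SD. Every y axis spans the same range. Uqcrq, Ndufa8 and Atp5o are lowest in reticular cells, Cox6c is highest in papillary cells, and Uqcrfs1 is higher in both Sca1+ populations than in papillary and reticular cells.

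In complex V the reticular mean was the lowest for 17 of 17 genes. Above the reticular level 14 were called in papillary cells and 14 in Dlk1- Sca1+ cells. Atp5e, the epsilon subunit of the central stalk, had the widest difference of all members between papillary and reticular cells. It stood at 10.48, 10.37 and 10.50 in papillary cells, against 9.69, 9.16 and 9.62 in reticular cells. The groups did not overlap, and the difference was 0.96 ± 0.15 (1.95-fold, limma adjusted p = 0.000243). In Dlk1- Sca1+ and Dlk1+ Sca1+ cells it averaged 10.10 ± 0.19 and 9.99 ± 0.21 (SD, n = 3 each).

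Atp5o, the OSCP subunit that ties the catalytic head to the stator, read 10.90, 11.01 and 10.91 in papillary cells and 10.86, 10.79 and 10.82 in Dlk1- Sca1+ cells. It read 10.56, 10.58 and 10.66 in Dlk1+ Sca1+ cells and 10.38, 10.24 and 10.29 in reticular cells. The 4 populations did not overlap. Papillary minus reticular was 0.64 ± 0.07 (1.55-fold, limma adjusted p = 1.29e-05) and Dlk1- Sca1+ minus reticular was 0.52 ± 0.07 (limma adjusted p = 0.00016). Papillary minus Dlk1- Sca1+, at 0.12 ± 0.07, was not called (limma adjusted p = 0.276).

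Atp5a1 and Atp5b form the catalytic head. Atp5a1, the alpha subunit, was higher in papillary and Dlk1- Sca1+ than in reticular cells by 0.21 ± 0.06 and 0.23 ± 0.06. Atp5b, the beta subunit that carries the active site, was higher by 0.39 ± 0.06 and 0.49 ± 0.06 in the same comparisons, and by 0.30 ± 0.06 in Dlk1- Sca1+ than in Dlk1+ Sca1+ cells (limma adjusted p = 0.0088). Atp5k, the small membrane subunit e, was higher by 0.74 ± 0.14 in papillary than in reticular cells (1.67-fold, limma adjusted p = 0.00122).

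Atp5g1, Atp5g2 and Atp5g3 encode the same mature protein, subunit c of the rotor ring. Atp5g1 averaged 9.82 ± 0.04 in papillary, 9.80 ± 0.08 in Dlk1- Sca1+, 9.62 ± 0.06 in Dlk1+ Sca1+ and 9.27 ± 0.07 in reticular cells (SD, n = 3 each). Atp5g2 averaged 9.75 ± 0.04, 9.60 ± 0.06, 9.43 ± 0.09 and 9.26 ± 0.09 in the same order. Both exceeded the reticular level in papillary cells, by 0.55 ± 0.07 and 0.49 ± 0.08. Atp5g3 differed by 0.11 ± 0.08 there (limma adjusted p = 0.434) and papillary minus Dlk1- Sca1+ was -0.26 ± 0.08 (limma adjusted p = 0.0361). A difference in response among the 3 genes was not tested.

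A set of 12 genes was called lower in reticular cells than in each of the 3 other populations, against 1.06% of all genes. They were Ndufa11, Ndufa4, Ndufa8, Ndufa9, Ndufb10, Ndufb4 and Ndufv3 of complex I, Uqcr10, Uqcr11 and Uqcrq of complex III, and Atp5g1 and Atp5o of complex V. With the animal as a block 33 genes met the same rule. The count fell to 6 without the reticular array of animal 2, to 4 without the Dlk1+ Sca1+ array of animal 3, to 1 without animal 2 and to 0 without animal 3. Leaving out the reticular array of animal 3 gave 12. For 5 of the 12 (Atp5g1, Ndufa11, Ndufb4, Uqcr10 and Uqcrq) the next brightest probe set was not called in Dlk1+ Sca1+ against reticular cells.

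Promoter sequences from RefSeq (GRCm38.p6), from 250 bases before to 50 after the start, matched 63 of the 79 genes in 68 windows. Genes of the chain are known to be bound near their starts by NRF1, by the ETS factor GABP and by YY1. The core of the NRF1 motif, GCGCATGC or GCATGCGC on the other strand, was in 10 of the 68 windows (14.7%), against 3.51% of 21262 windows of protein-coding genes. The ETS core, CCGGAAG or CTTCCGG, was in 15 (22.1%), against 11.6%. The YY1 core, AAGATGGC or GCCATCTT, was in 10 (14.7%), against 3.05%. Among the 12 genes lowest in reticular cells 11 had a window, of which 3 held the NRF1 core, 1 the ETS core and 1 the YY1 core. A match is no evidence of binding. The windows of the 4 genes among these 12 with an NRF1 or YY1 core are shown 5′ to 3′, with capitals on motif letters. They were picked by motif. Their order of populations is shared by Ndufb4 and Uqcr10, also among the 12, whose windows held none of these cores.
Ndufa11 (chr17:56717512-56717811, plus strand): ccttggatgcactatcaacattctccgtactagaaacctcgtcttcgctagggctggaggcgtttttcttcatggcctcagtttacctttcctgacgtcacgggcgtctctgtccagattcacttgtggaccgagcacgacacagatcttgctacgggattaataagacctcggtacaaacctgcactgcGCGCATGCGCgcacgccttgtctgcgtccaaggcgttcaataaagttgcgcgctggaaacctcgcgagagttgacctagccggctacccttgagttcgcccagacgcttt
Ndufa8 (chr2:36049289-36049588, minus strand): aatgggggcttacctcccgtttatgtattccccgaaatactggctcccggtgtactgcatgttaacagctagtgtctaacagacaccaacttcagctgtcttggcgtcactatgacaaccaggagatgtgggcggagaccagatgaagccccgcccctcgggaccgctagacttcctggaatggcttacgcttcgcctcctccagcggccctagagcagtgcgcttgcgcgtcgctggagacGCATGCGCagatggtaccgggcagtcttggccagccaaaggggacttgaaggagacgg
Ndufa9 (chr6:126849095-126849394, minus strand): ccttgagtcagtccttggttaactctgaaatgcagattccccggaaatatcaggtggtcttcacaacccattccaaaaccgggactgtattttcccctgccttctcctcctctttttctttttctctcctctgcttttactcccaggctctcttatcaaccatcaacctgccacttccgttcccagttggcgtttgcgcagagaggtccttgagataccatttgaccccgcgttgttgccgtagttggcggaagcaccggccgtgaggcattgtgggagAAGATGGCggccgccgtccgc
Uqcr11 (chr10:80406772-80407071, minus strand): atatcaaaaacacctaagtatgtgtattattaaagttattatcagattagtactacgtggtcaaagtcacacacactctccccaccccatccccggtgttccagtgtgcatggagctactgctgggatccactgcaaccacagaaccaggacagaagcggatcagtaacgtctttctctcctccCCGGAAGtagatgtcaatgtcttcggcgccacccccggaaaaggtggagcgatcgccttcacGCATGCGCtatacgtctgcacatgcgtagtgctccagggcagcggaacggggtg

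In Ndufa11 the capitals mark 2 overlapping matches to the NRF1 core, in Ndufa8 and Uqcr11 a single one, and in Uqcr11 also the ETS core upstream of it. In Ndufa9 the capitals mark the YY1 core. Levels of Ndufa11 averaged 10.13 ± 0.05 in papillary, 10.22 ± 0.11 in Dlk1- Sca1+, 10.05 ± 0.08 in Dlk1+ Sca1+ and 9.72 ± 0.08 in reticular cells (SD, n = 3 each). Ndufa9 averaged 9.96 ± 0.04, 10.10 ± 0.07, 9.88 ± 0.04 and 9.53 ± 0.07, and Uqcr11 9.91 ± 0.08, 10.12 ± 0.14, 9.84 ± 0.05 and 9.39 ± 0.10, in the same order of populations. The smallest of their differences from reticular cells was 0.33 ± 0.08, for Ndufa11 in Dlk1+ Sca1+ cells (limma adjusted p = 0.0205).

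The mobile carrier and the partners of the chain were read beside its subunits. Cycs, cytochrome c, averaged 10.04 ± 0.11 in papillary, 10.36 ± 0.08 in Dlk1- Sca1+, 10.00 ± 0.09 in Dlk1+ Sca1+ and 9.85 ± 0.10 in reticular cells (SD, n = 3 each), and was higher in Dlk1- Sca1+ than in reticular cells by 0.51 ± 0.09 (limma adjusted p = 0.00101). Cyc1, cytochrome c1 of complex III, and Ndufab1, the acyl carrier protein of complex I, fall outside the symbol rule and were higher by 0.44 ± 0.11 and 0.46 ± 0.10 in the same comparison. Of 46 assembly factors limma called 14 higher (30.4%, against 9.36% of all genes) and 0 lower (2 lower at an unadjusted p under 0.05) in Dlk1- Sca1+ against reticular cells, with a median of 0.22. Between papillary and reticular cells 12 were higher in papillary cells (26.1%, against 13.9% of all genes) and 3 lower (6.52%, against 13.6%). Cox14, needed to build complex IV, was higher by 1.18 ± 0.12 in Dlk1- Sca1+ than in reticular cells (limma adjusted p = 2.33e-05), and Sdhaf2, which helps to load flavin on Sdha, by 1.18 ± 0.09 in papillary than in reticular cells (limma adjusted p = 5.85e-07).

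The tricarboxylic acid cycle feeds the chain. Of 16 of its genes limma called 11 higher (68.8%, against 9.36% of all genes) and 0 lower in Dlk1- Sca1+ against reticular cells, with 0 lower at an unadjusted p under 0.05 as well. Among them was Suclg2, a subunit of succinyl-CoA ligase, at 0.95 ± 0.12 (limma adjusted p = 0.000128). In papillary against reticular cells 7 were higher (43.8%, against 13.9% of all genes) and 0 lower (0 lower at an unadjusted p under 0.05). Of 17 glycolytic genes 5 were higher (29.4%, against 9.36% of all genes) and 1 lower (5.88%, against 8.80%) in Dlk1- Sca1+ than in reticular cells. Between papillary and reticular cells 3 were higher in papillary cells (17.6%, near the 13.9% of all genes) and 5 lower (29.4%, against 13.6%). Mitochondrial ribosomal protein genes, which make the mitochondrially encoded subunits, numbered 71. Of these 39 were higher and 1 lower in Dlk1- Sca1+ than in reticular cells, with a median of 0.32 (9.36% and 8.80% of all genes). In papillary against reticular cells 32 were higher and 3 lower, with a median of 0.26 (13.9% and 13.6% of all genes). Of 66 cytosolic ribosomal protein genes 8 were higher and 0 lower in Dlk1- Sca1+ than in reticular cells, with a median of 0.08. The shares higher there were 9.36% of all genes and 20.1% of genes with a mean of 9 or more. In papillary against reticular cells 2 cytosolic ones were higher and 1 lower, against 13.9% and 13.6% of all genes.

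Regulators of mitochondrial biogenesis numbered 23. Compared with reticular cells, Dlk1- Sca1+ cells had 2 higher (8.70%, near the 9.36% of all genes) and 1 lower (4.35%, against 8.80%). In papillary cells 7 were lower and 2 higher than in Dlk1+ Sca1+ cells (30.4% lower, against 13.9% of all genes). Against Dlk1- Sca1+ cells 5 were lower and 2 higher in papillary cells, and against reticular cells 5 were lower and 3 higher (21.7% lower in each, against 13.3% and 13.6% of all genes). Pparg, the central regulator of fat cell formation, averaged 8.30 ± 0.18 in papillary, 10.40 ± 0.05 in Dlk1- Sca1+, 9.82 ± 0.11 in Dlk1+ Sca1+ and 7.97 ± 0.16 in reticular cells (SD, n = 3 each). Ppargc1b, a coactivator known to raise respiratory genes, was higher in Dlk1- Sca1+ than in reticular cells by 1.13 ± 0.09 (limma adjusted p = 1.5e-06). The transcripts of Nrf1, Gabpa, Esrra and Tfam differed by -0.03, 0.16, 0.07 and -0.06 in that comparison, and none was called (limma adjusted p = 0.91, 0.363, 0.677 and 0.816).

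Genes of some other cell types and states also differed in these comparisons. Of 13 skeletal muscle markers 8 were lower in Dlk1- Sca1+ than in reticular cells (61.5%, against 8.80% of all genes). In papillary cells 7 were lower than in reticular cells (53.8%, against 13.6%). Their mean log2 level was 5.755 to 5.827 in papillary, 5.758 to 5.882 in Dlk1- Sca1+, 6.085 to 6.139 in Dlk1+ Sca1+ and 6.395 to 6.536 in reticular arrays. Acta1, actin of skeletal muscle, fell by 2.54 on the log2 scale in Dlk1- Sca1+ against reticular cells. Pericyte and smooth muscle markers, of which 9 were measured, averaged 6.477 to 6.626 in papillary, 7.001 to 7.234 in Dlk1- Sca1+, 7.18 to 7.833 in Dlk1+ Sca1+ and 7.719 to 8.384 in reticular arrays. The part of these cells in the low respiratory chain levels of reticular arrays was not tested.

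Of 7 mature adipocyte markers 5 were higher in Dlk1- Sca1+ than in reticular cells (71.4%, against 9.36% of all genes). Their mean was 5.704 to 6.029 in papillary, 8.277 to 8.5 in Dlk1- Sca1+, 8.144 to 8.257 in Dlk1+ Sca1+ and 6.843 to 6.987 in reticular arrays. Of 5 brown adipocyte markers limma called 0 against reticular cells in any population. At an unadjusted p under 0.05, 1 was lower in Dlk1- Sca1+ cells and 1 in Dlk1+ Sca1+ cells. Their mean was 5.614 to 5.746 in Dlk1- Sca1+ and 5.58 to 5.732 in reticular arrays. These levels lie below the array medians of 6.21 to 6.34, so the lack of calls says little. Against reticular cells, 19 of 21 cell cycle genes were higher in papillary cells (90.5%, against 13.9% of all genes). In Dlk1- Sca1+ cells 2 were higher (9.52%, near the 9.36% of all genes). Of 10 keratinocyte markers 1, Krt10, was higher in Dlk1- Sca1+ than in reticular cells (10.0%, also near that share). Their mean over the Dlk1- Sca1+ arrays of animals 1, 2 and 3 was 9.616, 7.246 and 7.305. Without that array 53 respiratory chain genes were higher in Dlk1- Sca1+ than in reticular cells. The part of adipocyte, cell cycle and keratinocyte transcripts in the respiratory chain differences was otherwise not tested.

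In papillary against Dlk1- Sca1+ cells 18 of 21 cell cycle genes were higher (85.7%, against 13.1% of all genes), and 5 of 7 adipocyte markers were lower (71.4%, against 13.3%). Of 6 melanocyte and Schwann cell markers 4 were lower (Dct, Pmel, Tyrp1 and Mitf, genes of the pigment cell), against 13.3% of all genes. Their mean was 6.003, 6.063 and 6.098 in the papillary arrays of animals 1, 2 and 3, and 7.58, 6.753 and 6.372 in the Dlk1- Sca1+ arrays. It was 7.027, 6.498 and 6.418 in the Dlk1+ Sca1+ arrays and 6.358, 6.237 and 6.19 in the reticular ones. The Dlk1- Sca1+ array of animal 1 was thus the highest for these markers as well as for the keratinocyte ones. Without it papillary levels were called below those of Dlk1- Sca1+ cells for 11 respiratory chain genes, against 15 with it. The part of pigment cell transcripts in the differences was otherwise not tested.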

How the data were processed

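RNA of 12 sorted fibroblast samples was hybridised to Affymetrix arrays. The authors deposited log2 expression values. The submitters' processing notes name RMA and affy, and their versions are not given in the sources used here. This method brings arrays to a common distribution, so a shift shared by all genes is removed, and amplification over 21 cycles can distort levels. The values ran from 3.30 to 13.27, and their sorted columns differed by at most 0.17, so no further normalization was applied. Depth does not apply to arrays, and the 3 arrays per population limit the precision.

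Of 45141 probe sets 28898 had a single symbol and 551 several, and 15588 were unnamed here. The brightest probe set per symbol gave 17097 genes. Of the 79 members 38 had more than 1 probe set. All 12 arrays entered 1 limma fit (version 3.58.1, R 4.3.3) that gave each population its own mean, with 8 residual and 4.475 prior degrees of freedom. The 6 contrasts and the F-test were adjusted by Benjamini-Hochberg. The fit was tested on simulated data. Motifs were searched in promoter windows on both strands.

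The labels number 3 littermates and give each number once per population, which was read as 1 animal each. For arrays sharing a number, residuals after removing population means correlated with a mean r of 0.266 across genes, which are not independent replicates (0.086 to 0.432, 17 of 18 pairs above 0.1). The mean was -0.132 for 36 pairs of different animals. That value follows largely from the first, because the residuals of a population sum to 0 for each gene, and is no separate evidence of pairing. The fit with the animal as a block is given where it changed a count by over 1.5 times or a stated call.

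Genes are named by a rule: per contrast and direction up to 6 called members by size, isoforms and their partners, the complex II subunits, the extremes of each complex and up to 4 called genes of each other list. Atp5a1, Atp5b, Atp5h, Atp5j, Ndufa3, Ndufa5, Ndufa9, Ndufa10, Ndufa11, Ndufa12, Ndufs1, Ndufs7, Ndufs8, Ndufv1, Ndufv2, Ndufv3 and the regulators that were not called fall outside it and were named after their values were seen. The members, lists and rule were chosen with earlier results of these data known. Alternatives were the block, centring, a second quantile normalization, leaving out dim genes, the mean of probe sets, an intensity trend and leaving out arrays or animals.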

Additional observations from a re-analysis of the deposited data

How the results depend on the processing

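The count of genes lowest in reticular cells and the counts by complex were put through the alternatives after seeing the data. With the animal as a block, the genes called higher were 20 in papillary against Dlk1+ Sca1+ cells, 5 in papillary against Dlk1- Sca1+ cells, 39 in Dlk1+ Sca1+ against reticular cells and 22 in Dlk1- Sca1+ against Dlk1+ Sca1+ cells, and 33 were lowest in reticular cells. The block ended none of the members' calls. With an intensity trend in the variance the same counts were 20 in papillary against Dlk1+ Sca1+ cells, 31 in Dlk1+ Sca1+ against reticular cells, 21 in Dlk1- Sca1+ against Dlk1+ Sca1+ cells and 26 lowest in reticular cells. With dim genes left out they were 18 in Dlk1- Sca1+ against Dlk1+ Sca1+ cells and 20 lowest in reticular cells. With arrays centred on their medians the median difference was 0.34 in papillary and 0.27 in Dlk1+ Sca1+ against reticular cells, and 19 genes were lowest in reticular cells. Centring also made the calls over all genes in Dlk1+ Sca1+ against reticular cells 885 higher and 622 lower, against 694 and 747 without it. With the mean over all probe sets of a gene, 13 of 18 calls were kept in Dlk1+ Sca1+ against reticular cells. In Dlk1- Sca1+ cells 7 of 10 were kept against Dlk1+ Sca1+ cells and 57 of 61 against reticular cells. In papillary cells 44 of 47 were kept against reticular, 14 of 16 against Dlk1+ Sca1+ and 16 of 17 against Dlk1- Sca1+ cells. Uqcrq in papillary minus Dlk1+ Sca1+ cells turned to -0.06, and Sdha in Dlk1- Sca1+ minus reticular cells became 0.16 and lost its call. The cause of these changes was not tested.

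Leaving out single arrays or whole animals leaves fewer samples, and an animal left out leaves 2 per population. The genes passing the F-test then numbered 37 to 62. In papillary against reticular cells 25 to 46 were higher and 0 to 3 lower, with a median of 0.25 to 0.33. In papillary against Dlk1+ Sca1+ cells 4 to 15 were higher and 1 to 4 lower. In papillary against Dlk1- Sca1+ cells 1 to 3 were higher and 6 to 19 lower. In Dlk1+ Sca1+ against reticular cells 1 to 17 were higher, with a median of 0.19 to 0.27. In Dlk1- Sca1+ against reticular cells 34 to 61 were higher. In Dlk1- Sca1+ against Dlk1+ Sca1+ cells 0 to 11 were higher, with a median of 0.15 to 0.23. From 0 to 12 were lowest in reticular cells.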
